A study of Mus musculus with 48 samples.

Results

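The effect of adding VEGFCc156s to angiotensin II was measured in the blood endothelium of the mouse heart. The members are the 8 RNA-seq libraries of heart blood endothelial cells (BECs) that the labels place in these treatment groups, out of 48 libraries in the series: 3 from mice infused with angiotensin II and VEGFCc156s (angII+VEGFC) and 5 from mice infused with angiotensin II and bovine serum albumin (angII). VEGFCc156s is a form of the growth factor VEGF-C with a cysteine replaced by serine, which binds VEGFR3 and is made to spare VEGFR2. The comparison asks whether blood endothelium, where VEGFR2 predominates, changed under a ligand aimed at lymphatic vessels. Another 4 heart BEC libraries came from control mice infused with saline and albumin (ctrl), and their values are given for reference. All animals were male Prox1-eGFP knock-in mice on a C57BL/6 background, in which eGFP follows the endogenous Prox1 promoter, and infusion by subcutaneous minipump lasted 5 to 6 weeks. BECs were sorted from digested hearts as live cells positive for the endothelial protein CD31 and negative for the leukocyte protein CD45.2 and for eGFP. By the labels, the angII mice were 8, 16, 14, 14 and 16 months old, and the angII+VEGFC mice 15, 8 and 8 months old. Age was thus uneven between these groups, so age and treatment are partly confounded, and age was a covariate of the main fits. The ctrl mice were labelled 9, 8, 16 and 16 months old. The paper's methods state 9 to 15 weeks for Prox1-eGFP mice, so the unit of the labelled ages is uncertain. Ages below are given in months as labelled. Library values are listed below in the order of mouse number, which is 2, 6 and 8 for angII+VEGFC, 3, 12, 14, 15 and 18 for angII, and 1, 5, 9 and 11 for ctrl. The endothelial libraries were sequenced in 2 batches, and 1 of the 3 angII+VEGFC libraries, that of mouse 6, was in batch 1.

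VEGF-C and VEGF-D act mainly through VEGFR3, encoded by Flt4, which in the adult is concentrated in lymphatic endothelium and also occurs in some fenestrated and sprouting blood vessels. VEGF-A acts on blood endothelium through VEGFR2, encoded by Kdr, while VEGFR1, encoded by Flt1, acts largely as a trap for the ligand, and the neuropilins Nrp1 and Nrp2 are co-receptors. Heart endothelium is mostly capillary, takes up fatty acids for the muscle through CD36 and lipoprotein lipase, and controls vessel tone through nitric oxide and endothelin.

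Levels are in TPM, a gene's length-normalised share of all transcripts in its library on a fixed total, which keeps no read depth. Genes that reached 1 TPM in at least 3 of the 12 heart BEC libraries passed the filter on low values and were tested. Markers of endothelium were present in every library. Pecam1, which encodes CD31, was at 835, 826 and 902 TPM in the angII+VEGFC libraries and 682, 890.3, 747, 812 and 893 TPM in the angII libraries. All 12 blood endothelial identity genes passed the filter, with summed levels of 11378 to 12528 TPM and 10035 to 12889.9 TPM. The same genes summed to 5510 to 7540 TPM in the heart lymphatic endothelial cell (LEC) libraries of angII mice. This list is thus shared in part with lymphatic endothelium. Lymphatic markers summed to 276 to 550.3 TPM and 332 to 512 TPM in heart BECs, against 20571 to 28412 TPM in those LEC libraries. Prox1, the transcription factor of lymphatic identity, was at 5.72, 1.88 and 1.06 TPM and 4.53, 2.33, 2.94, 2.67 and 2.39 TPM. Between 15076 and 20652 genes reached 1 TPM in the 8 libraries, and on the leading pair of principal components 0 of the 12 heart BEC libraries were more than 3 SD away from the centre. Fibroblast markers such as Dcn and Gsn stood apart in some libraries: their sum was 8087, 1368 and 1164 TPM in the angII+VEGFC libraries, 7351, 1120.0, 1417, 1009 and 1344 TPM in the angII libraries and 13206, 2057, 1397 and 1224 TPM in ctrl. In this sum 1 library of each group was over 3 times the median. Haemoglobin and platelet markers summed to 5784, 9158, 31357, 12129 and 10171 TPM in angII, highest in mouse 14, and 11119, 6982 and 12363 TPM in angII+VEGFC. Of 15 library measures, including genes at 1 TPM, the mitochondrial share and the marker sums, 0 differed between angII+VEGFC and angII. By a two-sided exact permutation test the smallest p was 0.196, the smallest adjusted p was 0.779 and 3 against 5 allows no p under 0.0179. In sorted bulk RNA, fewer cells of a type and less RNA per cell cannot be told apart.

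VEGFR3 transcript was present in heart BECs, and its levels in both treatment groups overlapped. Flt4 was at 54.1, 61.1 and 58.2 TPM in angII+VEGFC and 35.8, 64.4, 48.3, 61.1 and 61.0 TPM in angII, with 25.4, 41.5, 47.8 and 49.9 TPM in ctrl. The 3 angII+VEGFC values lay inside the angII range, and the change, fitted by limma on log2(TPM + 1) with age and batch as covariates, was 0.25 log2 units (SE 0.21, 95% interval -0.20 to 0.70). The estimate depended on single libraries and on the covariates. Without angII+VEGFC mouse 2 it was 0.58, at an unadjusted p under 0.05 in a fit whose smallest adjusted p over all genes was 0.920. Mouse 2 was high in fibroblast markers and 15 months old, while angII+VEGFC mice 6 and 8 were each 8 months old. Without angII+VEGFC mouse 6 the Flt4 estimate was 0.03. With batch as the only covariate it was 0.06, and with no covariates 0.12. Within batch 1 the difference of log2(TPM + 1) means was 0.34, with a single angII+VEGFC library, and within batch 2 it was -0.12. Kdr was higher than Flt4 on the length-normalised TPM scale in every library, at 928, 981 and 991 TPM in angII+VEGFC and 730.0, 1122, 892, 1007 and 1145 TPM in angII. Its angII+VEGFC values were bracketed by the angII values, with a log2 change of 0.04 (SE 0.17, 95% interval -0.33 to 0.40). The difference was 0.12 within batch 1 and -0.16 within batch 2. Flt1 was at 575, 593 and 462 TPM and 456, 461, 479, 637 and 594 TPM, and its log2 change was 0.02 (SE 0.15, 95% interval -0.31 to 0.35). In linear terms the intervals of these 3 receptors run from 0.868 to 1.62-fold for Flt4, 0.797 to 1.32-fold for Kdr and 0.809 to 1.27-fold for Flt1. A change of 2-fold in either direction lies outside each of these intervals of the main fit. For Flt4 the bound is tied to that fit, since the estimate was 0.58 without angII+VEGFC mouse 2.

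The co-receptors and ligands did not differ beyond the spread either. Nrp1, the co-receptor of VEGFR2, averaged 737 ± 27.9 TPM (SD, n = 3) in angII+VEGFC and 773 ± 56.2 TPM (SD, n = 5) in angII, with a log2 change and 95% interval of -0.08 (-0.35 to 0.19). Nrp2, the co-receptor of VEGFR3, averaged 126 ± 6.59 TPM and 134 ± 14.9 TPM, with -0.15 (-0.51 to 0.22). Endogenous mouse Vegfc, which the alignment to the mouse genome measures and which says nothing of the infused protein, varied more, at 81.5, 52.9 and 125 TPM in angII+VEGFC and 95.9, 118, 107, 63.2 and 94.3 TPM in angII. The lowest and the highest of these 8 values were both angII+VEGFC libraries. The fitted log2 change was -0.09 (SE 0.28, 95% interval -0.70 to 0.53), with -0.999 within batch 1 and 0.38 within batch 2. All 10 VEGF ligands, receptors and neuropilins passed the filter, and 0 were at an unadjusted p under 0.05, that is before correction for the number of genes, against 2.59% of all genes tested. Of the 10, 8 had a 95% interval within 1 log2 unit in either direction. The median log2 change of the 10 was -0.08, or 0.02 without angII+VEGFC mouse 8.

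**Figure D1:**
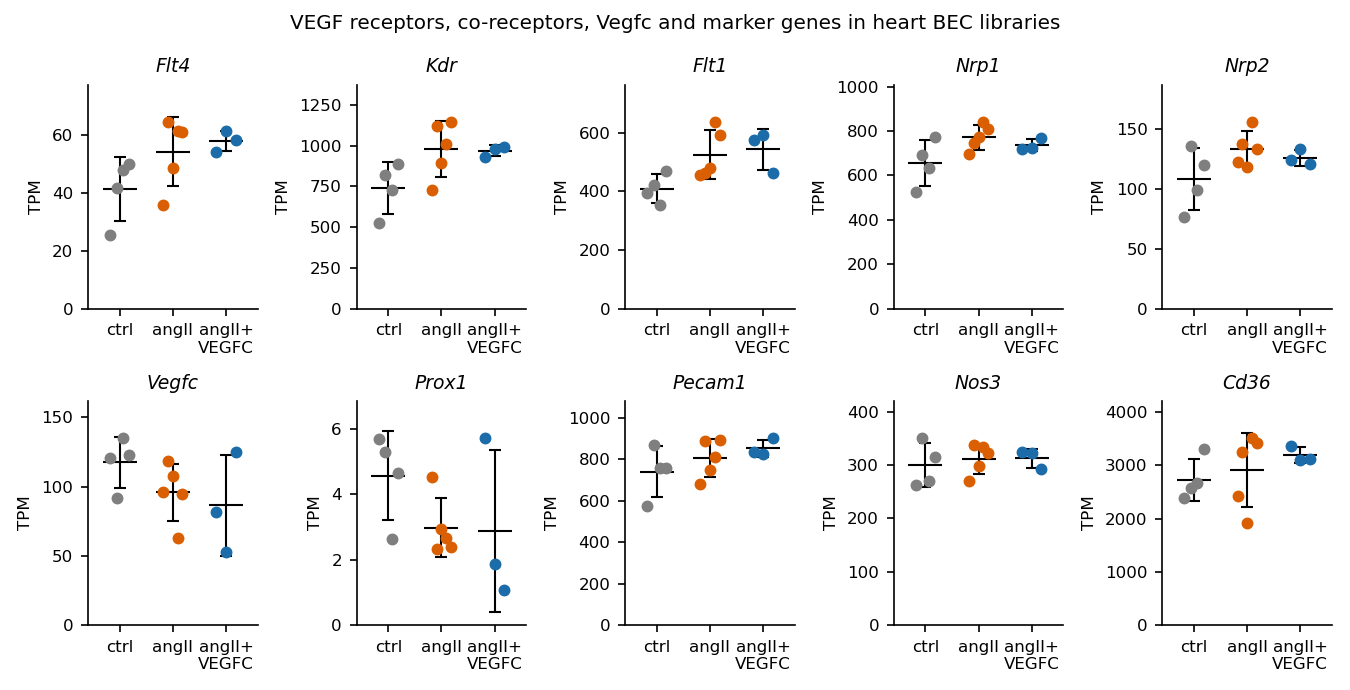
TPM of 10 genes (vertical axes, each from 0) in the 12 heart BEC libraries by group, with 1 point per mouse and the mean ± SD as bars. For Flt4, Kdr, Flt1 and Nos3 the angII+VEGFC points lie within or beside the angII points, and the 3 Vegfc points of angII+VEGFC span the angII range, from 52.9 to 125 TPM.

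Across the transcriptome, 0 of 21281 genes tested (0%) differed between angII+VEGFC and angII at a Benjamini-Hochberg adjusted p under 0.05 by limma, and the smallest adjusted p was 1.00. The count at an unadjusted p under 0.05 was 551 genes (2.59%), made up of 313 higher (1.47%) and 238 lower (1.12%). For scale, 5% of the genes tested would be 1064. The median log2 change over all genes was 0.03, and differences on the log2(TPM + 1) scale understate the change of low genes. A p over the threshold does not show equal levels, so the width of the intervals was examined. The 95% interval of the log2 change lay between -1 and 1 for 57.8% of genes tested, and this share rose with the level: 29.9% of 11103 genes under 5 TPM, 78.0% of 4075 genes from 5 to 20 TPM, 94.8% of 4412 genes from 20 to 100 TPM and 95.1% of 1691 genes at 100 TPM or more. The median SE was 0.41 log2 units in the lowest of these classes and 0.15 in the highest. Without the angII+VEGFC library of mouse 2, 1117 of 20870 genes (5.35%) were at an unadjusted p under 0.05. Without that of mouse 8 the count was 875 of 21073 (4.15%). Both fits again had 0 at the adjusted threshold. Without mouse 2 the angII+VEGFC mice left were each 8 months old. The 3 libraries high in fibroblast markers (mouse 2, mouse 3 and ctrl mouse 1) were also left out together. Then 0 of 19031 genes passed the adjusted threshold and 601 (3.16%) the unadjusted one, while the share of genes with an interval within 1 log2 unit was 23.6%. In that fit the angII+VEGFC mice were 8 months old and the angII mice 14 to 16, so age and treatment could hardly be told apart.

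**Figure D2:**
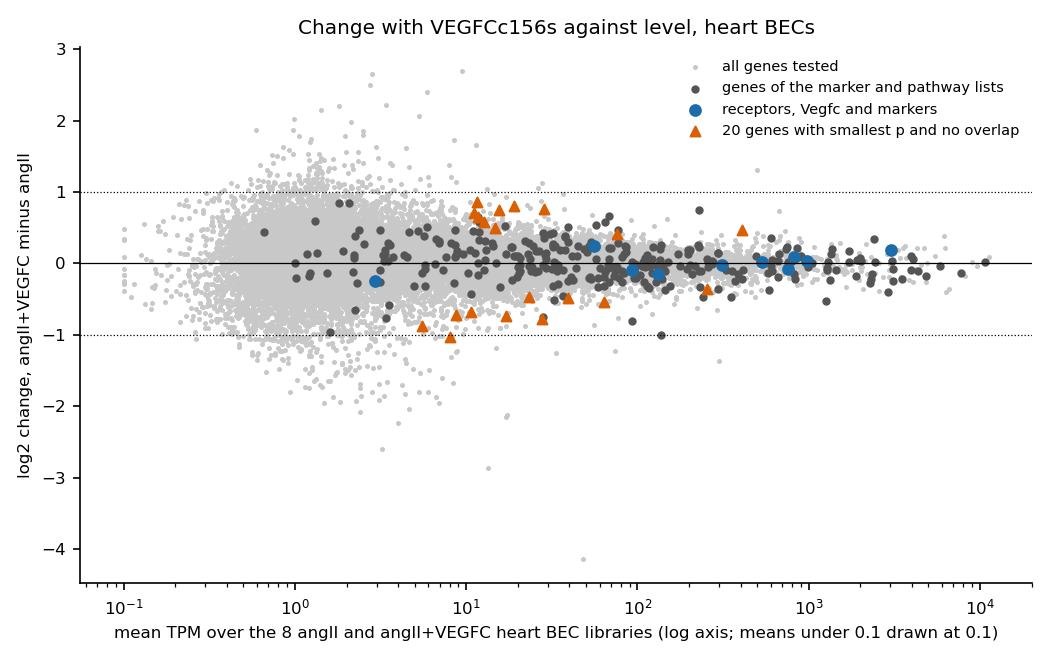
Log2 change, angII+VEGFC minus angII (vertical axis), against the mean TPM over the 8 libraries (log axis), with 1 point per gene tested and dotted lines at a change of -1 and 1. The cloud narrows as the level rises: 342 genes under 5 TPM lie beyond the dotted lines, and 7 genes at 20 TPM or more do.

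Genes of 20 TPM or more with a fitted change beyond 1 log2 unit numbered 7 and were looked up after their values were seen. They were the small nucleolar RNAs Rnu3b2 and Snord13, the signal recognition particle RNAs Rn7s1 and Rn7s2, the microRNA gene Mir703, the processed pseudogene Gm8741 and, as the only protein-coding gene, mt-Nd4l, a mitochondrially encoded subunit of respiratory complex I. Rnu3b2 was listed at 0 in all 3 angII+VEGFC libraries and at 0, 109.6, 30.2, 108 and 136 TPM in angII, and 1 of the 4 ctrl libraries was also at 0, so the groups overlapped at 0. Rn7s2 was at 294, 0 and 475 TPM in angII+VEGFC and 455, 79.6, 451, 641 and 0 TPM in angII. Such RNAs are short or have near-identical copies, among which reads can be split, and within the angII group Rn7s1 ran from 0 to 892 TPM and Rn7s2 from 0 to 641 TPM. Among the 5969 protein-coding genes at 20 TPM or more, 95.2% had an interval within 1 log2 unit, and 81 (1.36%) were at an unadjusted p under 0.05.

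The functional groups of blood endothelium showed the same picture. The 14 pathway lists hold 241 genes, of which 233 passed the filter, and 1 was higher and 1 lower at an unadjusted p under 0.05, which is 0.858% against 2.59% of all genes tested. Over all genes this share fell with level, from 3.25% under 5 TPM to 0.71% at 100 TPM or more, and the lists were not matched on level. Of the 233, 173 had an interval within 1 log2 unit, and the list medians ran from -0.19 to 0.21 log2 units against 0.03 over all genes. In angiogenic sprouting, 16 of 16 genes passed and 0 were at an unadjusted p under 0.05. The median was -0.02, or 0.13 without angII+VEGFC mouse 2. Its highest members were Aplnr, the apelin receptor of sprouting endothelium, at 317 ± 139.6 TPM against 334 ± 83.2 TPM, Dll4, the Notch ligand of tip cells, at 267 ± 11.4 TPM against 279 ± 53.7 TPM, and Robo4, a receptor of quiescent endothelium, at 258 ± 21.1 TPM against 253 ± 30.6 TPM, each as mean ± SD in angII+VEGFC and angII. The log2 change of Dll4 was -0.01 (-0.35 to 0.33) as value and 95% interval, and that of Robo4 was 0.06 (-0.24 to 0.37). In Notch signalling, 12 of 12 genes passed, 0 were at an unadjusted p under 0.05 and all 12 intervals lay within 1 log2 unit, around a median of -0.12. The target gene Hes1 was at 375 against 424 TPM and Hey1, another target, at 132 against 136 TPM. In the angiopoietin and Tie list, 6 of 6 passed and 0 were at an unadjusted p under 0.05. Its receptors Tie1 and Tek had log2 changes of 0.01 (-0.26 to 0.29) and 0.02 (-0.33 to 0.37). Angpt2, the ligand that destabilises vessels, had -0.05 (-0.48 to 0.38).

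Genes of vessel tone, barrier and fatty acid uptake had no member at an unadjusted p under 0.05. Nos3, the endothelial nitric oxide synthase, was at 324, 322 and 292 TPM in angII+VEGFC and 270.1, 337, 298, 334 and 323 TPM in angII, with 264, 350.2, 270.4 and 315 TPM in ctrl. Its log2 change was -0.02 (SE 0.13, 95% interval -0.30 to 0.26), and the angII+VEGFC values lay within the angII range. In vasoactive signalling 19 of 20 genes passed and 0 were at an unadjusted p under 0.05, with a median near 0. The shear-responsive factor Klf2 was at 3061, 1126 and 3451 TPM in angII+VEGFC, with mouse 6 lowest of the 8 libraries, and 2649, 3273, 4134, 2293 and 3109.8 TPM in angII, with a log2 change and 95% interval of -0.40 (-1.16 to 0.35). Cav1, the caveolar coat protein, and Thbd, the anticoagulant receptor thrombomodulin, had log2 changes of 0.01 (-0.29 to 0.32) and 0.04 (-0.34 to 0.41). In endothelial junctions 15 of 15 passed and 0 were at an unadjusted p under 0.05, again with a median near 0. The tight junction gene Cldn5 averaged 772 ± 8.01 TPM and 871 ± 184 TPM, and the adhesion gene Esam 1411 ± 84.8 TPM and 1299 ± 138 TPM.

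Fatty acid uptake gave 13 of 13 genes passed and 0 at an unadjusted p under 0.05, with a median of 0.02. Cd36, the fatty acid translocase and a marker of heart capillaries, was at 3372, 3106 and 3125 TPM in angII+VEGFC and 2431, 3260.2, 1925, 3510.3 and 3424 TPM in angII. The angII values were wider, with mouse 14 lowest, and the log2 change was 0.19 (SE 0.18, 95% interval -0.20 to 0.59). Gpihbp1, which anchors lipoprotein lipase on capillaries, was at 2630.3, 3037 and 2345 TPM and 2023, 2084, 1891, 2723 and 2469 TPM, and the groups overlapped. For Gpihbp1 the log2 change was 0.34 (SE 0.18, 95% interval -0.05 to 0.74). Fabp4, the most abundant gene of the list, had a log2 change of 0.02 (-0.39 to 0.42). Capillary markers as a whole summed to 22033 to 24379.8 TPM in angII+VEGFC and 20103 to 26064 TPM in angII, against 15567 to 21642 TPM in ctrl.

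Inflammatory genes had list medians below that of all genes, no member past the adjusted threshold, and medians that depended on single libraries. Over all genes tested, 45.0% of changes were negative. In the toll-like receptor and NF-kB list, 22 of 22 passed, 0 were at an unadjusted p under 0.05, 17 changes were negative and the median was -0.19, which was -0.02 without angII+VEGFC mouse 8. Its highest members were Socs3, an inhibitor of cytokine signalling, at -0.17 (-0.68 to 0.34) log2 units, Nfkbia, the NF-kB inhibitor, at -0.23 (-0.57 to 0.11), and Irf1, an interferon regulatory factor, at -0.53 (-1.33 to 0.27). In the interferon list 21 of 22 passed, 0 were at an unadjusted p under 0.05 and 19 changes were negative, with a median of -0.13, which was 0.01 without angII+VEGFC mouse 6. Isg15, an interferon-induced ubiquitin-like protein, averaged 196 ± 34.9 TPM against 270.0 ± 97.0 TPM, and Irf7, a regulator of interferon genes, 129 ± 13.4 TPM against 156 ± 34.2 TPM. The log2 change of Irf7 was -0.37 (-0.74 to 0.01) as value and 95% interval. Among 27 of 32 chemokine ligands that passed, 0 were higher and 1 was lower at an unadjusted p under 0.05, with a median of -0.14. Without angII+VEGFC mouse 6 or without angII mouse 3 this median was 0.13. The lower gene was Ccl24, a ligand that draws eosinophils, at 0.744, 1.04 and 0.732 TPM in angII+VEGFC and 3.16, 1.42, 2.22, 1.91 and 1.65 TPM in angII, which did not overlap but were low. The fitted change of Ccl24 was -0.96 (SE 0.35, 95% interval -1.71 to -0.21). The CXCR3 ligand Cxcl10 was at 121, 115 and 32.5 TPM in angII+VEGFC and 268, 40.1, 250.1, 162 and 109 TPM in angII, with 301, 203, 152 and 145 TPM in ctrl. Its groups overlapped, and the interval of -2.34 to 0.34 log2 units around -0.998 spans no difference and a difference of severalfold. Cxcl1, a neutrophil chemokine, and Cxcl12, the homeostatic ligand of CXCR4, were at -0.25 (-1.23 to 0.72) and 0.35 (-0.15 to 0.86). In leukocyte adhesion 10 of 11 passed and 0 were at an unadjusted p under 0.05, with a median of -0.02, or 0.12 without angII+VEGFC mouse 8. Icam1, the ligand of leukocyte integrins, was at 719.8, 628 and 259.6 TPM and 746, 409.7, 689.9, 683 and 575 TPM with mouse 8 of angII+VEGFC lowest. The dissociation stress list, immediate early and heat shock genes that sorting can induce, had 11 of 12 changes negative, 0 at an unadjusted p under 0.05 and a median of -0.16. Its summed level was 37268, 31086 and 41157 TPM in angII+VEGFC and 37028 to 40831 TPM in angII. Its part in the values of the inflammatory lists was not tested.

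Growth and matrix genes had list medians above that of all genes, with a single gene at an unadjusted p under 0.05, and each median changed sign when 1 angII+VEGFC library was left out. The cell cycle list had 22 of 22 genes passed, 0 at an unadjusted p under 0.05, 17 positive changes and a median of 0.21, the highest of the 14 lists, which was -0.26 without angII+VEGFC mouse 6. The replication genes Pcna, Mcm6 and Tyms had log2 changes of -0.04 (-0.64 to 0.56), 0.24 (-0.12 to 0.60) and 0.30 (-0.38 to 0.97). Mki67, the marker of cycling cells named here after its value was seen, was at 2.78, 5.83 and 1.74 TPM and 5.01, 2.24, 2.63, 3.06 and 2.79 TPM. The MYC growth list had 18 of 18 passed, 1 higher and 0 lower, with a median of 0.06, or -0.10 without angII+VEGFC mouse 6. The gene at an unadjusted p under 0.05 was Nme1, a nucleoside diphosphate kinase, at 53.6, 88.7 and 69.5 TPM in angII+VEGFC and 53.0, 49.0, 41.5, 45.2 and 55.4 TPM in angII, with the lowest angII+VEGFC value inside the angII range. Its log2 change was 0.53 (SE 0.19, 95% interval 0.13 to 0.94). Ldha, a glycolytic enzyme, had 0.21 (-0.18 to 0.61). Mycn and Myc, the transcription factors behind the list and likewise named afterwards, had 0.22 (-0.11 to 0.56) and -0.13 (-1.59 to 1.32), and Myc ran from 31.8 to 221 TPM within angII+VEGFC. In the matrix and TGF-beta list 28 of 28 passed, 0 were at an unadjusted p under 0.05 and 22 changes were positive, with a median of 0.10, or -0.07 without angII+VEGFC mouse 2. The basement membrane chain Col4a1 and the matrix protein Sparc had 0.02 (-0.47 to 0.51) and 0.07 (-0.32 to 0.45). Ccn2, a TGF-beta and stretch target with the largest change of that list, was at 405, 467 and 171 TPM in angII+VEGFC and 282, 145, 96.9, 145 and 125 TPM in angII. The fitted change of Ccn2 was 0.75 (SE 0.42, 95% interval -0.17 to 1.67), and with 1 library left out the estimate ran from -0.01 to 1.19.

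**Figure D3:**
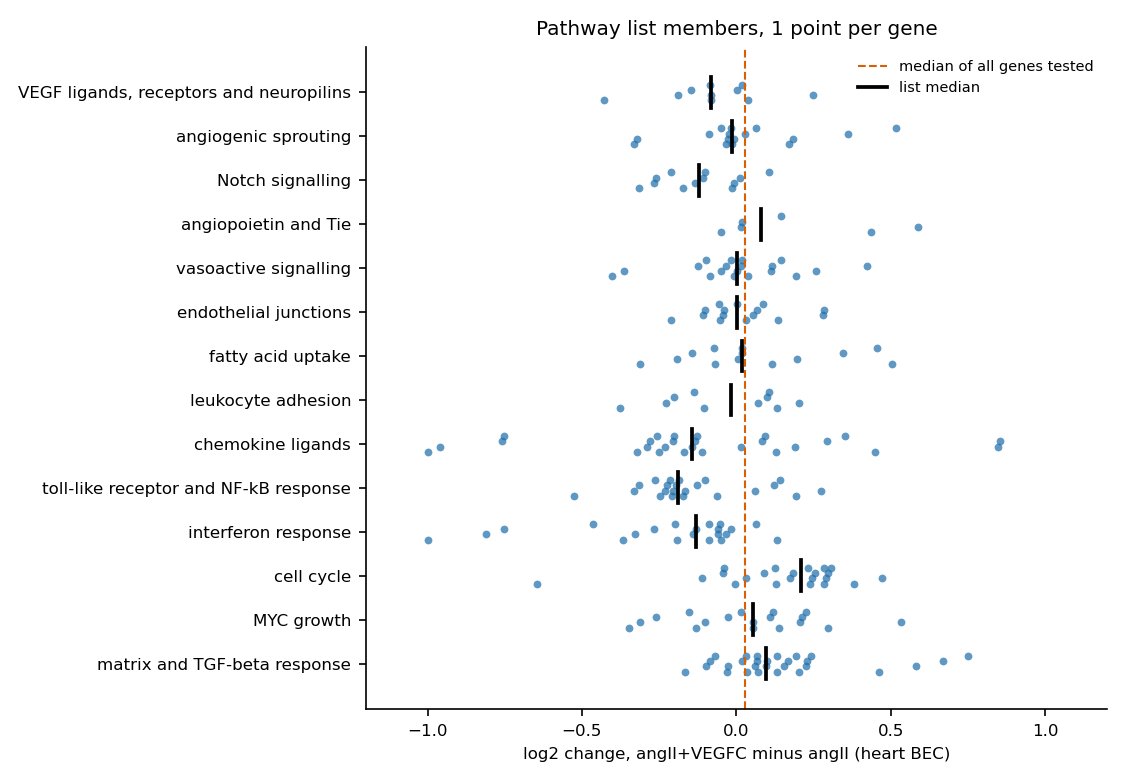
Log2 change, angII+VEGFC minus angII, in heart BECs (horizontal axis) for each gene of the 14 pathway lists that passed the filter, 1 point per gene, with list medians as black bars and the median of all genes tested as a dashed line. The list medians lie between -0.19 and 0.21.

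Markers of other vascular cells were set beside these values. Pericyte and smooth muscle markers summed to 258, 276 and 451 TPM in angII+VEGFC and 159, 304, 176, 265 and 293 TPM in angII (exact permutation p = 0.250, adjusted p = 0.779). All 8 of these genes passed the filter with log2 changes from 0.27 to 0.58, and 0 were at an unadjusted p under 0.05. Cardiomyocyte markers summed to 242, 255 and 267 TPM and 240.2, 178, 247, 238 and 255 TPM (exact permutation p = 0.304, adjusted p = 0.779), with 9 of 9 passed. Leukocyte markers, with 6 of 8 passed, were at 27.3 to 57.6 TPM and 33.2 to 77.7 TPM in sum.

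The genes nearest to a difference were taken by a rule on p, level and overlap. Groups without overlap were found for 300 genes with angII+VEGFC above angII (1.41% of genes tested) and 142 with angII+VEGFC below (0.667%). Among those with a mean of 5 TPM or more, the 10 higher and 10 lower genes with the smallest unadjusted p were taken, and the adjusted p of each was 1.00. The rule used this contrast, so these values are a description. Tgm2, tissue transglutaminase, which crosslinks matrix proteins, was the most abundant of the higher genes (chromosome 2, 158116402 to 158146436 in GRCm38), at 486, 459 and 532 TPM in angII+VEGFC and 361, 294, 434, 364 and 330.5 TPM in angII. Its fitted log2 change was 0.47 (SE 0.15, 95% interval 0.15 to 0.80), and ctrl libraries were at 365, 385, 422 and 442 TPM. Cd320, the transcobalamin receptor for vitamin B12 uptake (chromosome 17, 33843091 to 33849774), had the smallest p of the higher genes, at 18.7, 20.9 and 18.8 TPM in angII+VEGFC and 11.4, 14.0, 11.8, 12.5 and 15.5 TPM in angII. Its log2 change was 0.74 (SE 0.20, 95% interval 0.31 to 1.17), and 1 ctrl library, at 18.4 TPM, lay above all angII libraries. Cldn15, a claudin (chromosome 5, 136966616 to 136975858), was at 39.1, 40.9 and 30.7 TPM in angII+VEGFC and 21.1, 21.9, 16.2, 30.1 and 27.4 TPM in angII. The fitted log2 change of Cldn15 was 0.76 (SE 0.23, 95% interval 0.27 to 1.25). Got2, the mitochondrial aspartate aminotransferase, was at 83.3, 88.1 and 93.1 TPM in angII+VEGFC and 67.8, 73.6, 65.9, 61.9 and 74.5 TPM in angII, a log2 change of 0.41. The other higher genes had log2 changes from 0.50 to 0.87: Zfp146, a zinc finger gene, Narf, a prelamin A binding protein, Pard6a, a cell polarity protein, Pln, the inhibitor of the cardiac calcium pump, Snn, stannin, and Prmt3, an arginine methyltransferase. Pln belongs to the cardiomyocyte marker list, whose summed levels are given above, and the part of that list in its value was not tested.

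Among the lower genes, Cdkn2aip, a regulator of the p53 pathway (chromosome 8, 47709344 to 47713932), had the smallest p of all 20, at 47.6, 53.3 and 45.5 TPM in angII+VEGFC and 71.7, 67.5, 76.5, 69.1 and 77.8 TPM in angII. Its log2 change was -0.54 (SE 0.13, 95% interval -0.82 to -0.26), and ctrl libraries were at 89.5, 73.7, 78.2 and 81.7 TPM. Dnajb1, a heat shock co-chaperone, was at 241, 218 and 239.8 TPM in angII+VEGFC and 318, 255, 261, 263 and 255 TPM in angII. The fitted log2 change of Dnajb1 was -0.35 (SE 0.12, 95% interval -0.61 to -0.09). The highest angII+VEGFC value of Dnajb1 was close to the lowest angII value, 241 against 255 TPM. Malsu1, a mitochondrial ribosome assembly factor, was at 31.6, 33.9 and 26.7 TPM in angII+VEGFC and 58.5, 45.8, 37.9, 36.5 and 43.8 TPM in angII. Dnase2a, the lysosomal nuclease, Atxn7l1 and Enkd1 had log2 changes of -0.68, -0.47 and -0.87. Gm11808, Gm5526 and Gm28053, at -0.78, -1.03 and -0.72, are predicted gene models, Gm5526 is annotated as a processed pseudogene and Gm28053 overlaps Gimap7, Gimap1 and Gimap5, so their values are uncertain. In all, 12 of the 20 genes overlap another annotated gene, and the library preparation is not stated to keep strand.

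**Figure D4:**
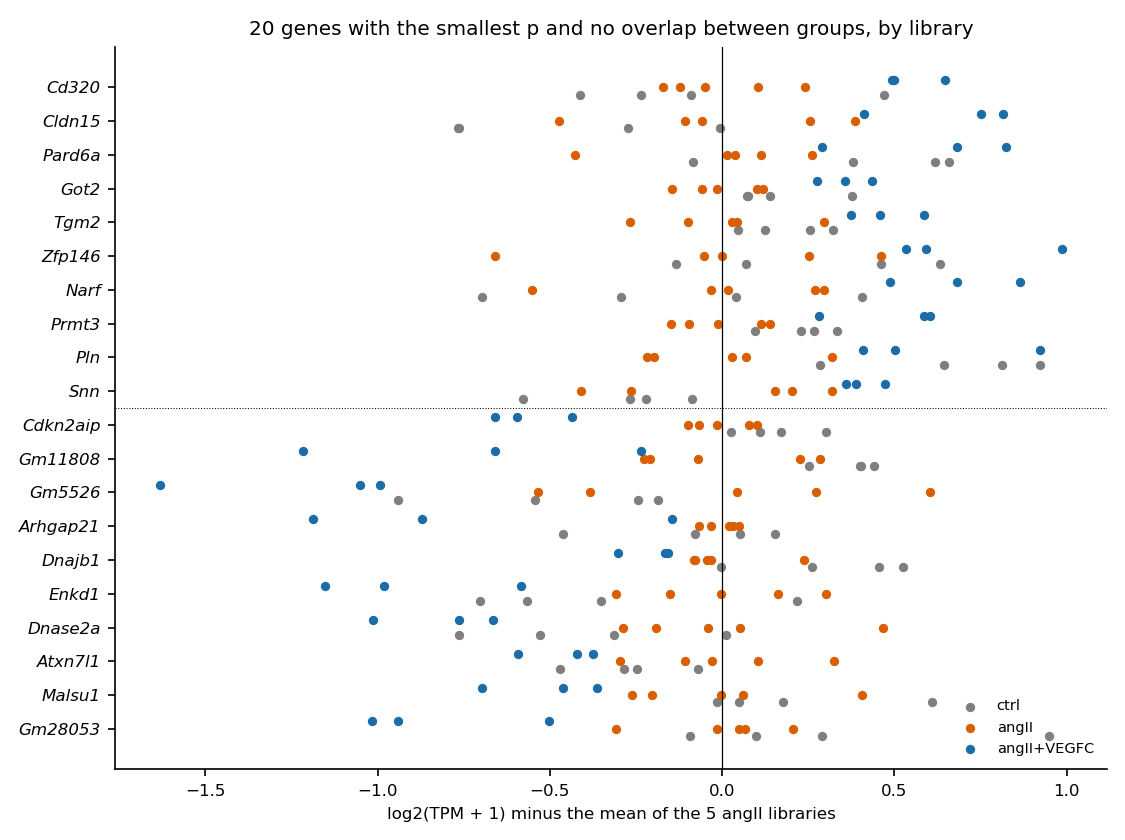
Level of the 20 genes in each heart BEC library, as log2(TPM + 1) minus the mean of the 5 angII libraries (horizontal axis), 1 point per mouse and genes ordered by p within each direction. The angII+VEGFC points lie on 1 side of all angII points, as the rule requires. The ctrl points vary by gene: those of Pard6a and Enkd1 fall on either side of the angII mean, and those of Tgm2 and Cdkn2aip all lie above it.

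Whether blood endothelium differed from lymphatic endothelium in its response was tested directly, by the interaction of population and treatment over 36 endothelial libraries. For heart LECs minus heart BECs, 0 of 32754 genes passed an adjusted p under 0.05 by limma, with a smallest adjusted p of 0.536, and 2106 (6.43%) were at an unadjusted p under 0.05. Of these, 1924 had the lower change in LECs and 182 the higher, and the median difference over all genes was -0.32 log2 units. Quantile normalization gives all libraries the same distribution of values, which largely removes such a lean by construction, so it cannot show where the lean came from. After it the median difference was 0.00315, and 672 of 1360 genes at an unadjusted p under 0.05 were lower in LECs. The number of genes at 1 TPM was 16756 to 18884 in the angII+VEGFC heart LEC libraries and 19957 to 25896 in those of angII, which did not overlap, while the heart BEC ranges were 15476 to 20652 and 15076 to 18380. For diaphragm LECs minus heart BECs, 0 genes passed the adjusted threshold and 2294 (7%) the unadjusted one. The LEC estimates were also less precise, with a median SE of 0.59 log2 units within heart LECs against 0.33 in heart BECs, so the absence of genes past the adjusted threshold does not show that blood and lymphatic endothelium responded alike.

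Flt4 was higher in each of these heart LEC libraries than in any heart BEC library, at 459.8 to 642 TPM in angII+VEGFC and 333 to 625 TPM in angII, and its change with VEGFCc156s, fitted within each cell type, was 0.24 log2 units in LECs and 0.25 in BECs. The difference of changes in the joint fit was 0.16 (95% interval -0.44 to 0.77, adjusted p = 0.911). For Kdr the difference of changes, heart LECs minus heart BECs, was -0.23 (95% interval -0.69 to 0.23, adjusted p = 0.833). Cd36 was at 208 to 361 TPM in angII+VEGFC heart LECs and 350.2 to 991 TPM in those of angII, where the log2 change was -0.98 against 0.19 in BECs. The difference was -1.32 (95% interval -2.27 to -0.36, adjusted p = 0.768). Nrp1 had -1.21 in heart LECs against -0.08 in BECs, a difference of -1.17 (95% interval -2.36 to 0.02, adjusted p = 0.768). With the mouse as a block, since LECs and BECs came from the same animals, the adjusted p of Nrp1 was 0.523 and that of Cd36 was 0.488. Both are abundant in BECs. Capillary markers in the heart LEC libraries summed to 2855 to 3107 TPM in angII+VEGFC and 4038 to 9538 TPM in angII, without overlap, and erythroid and platelet markers summed to 14.4 to 589 and 2098 to 6539 TPM. The part of these markers in the differences between the cell types was not tested.

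By the rule for this comparison, the 5 genes with the smallest interaction p and a lower change in LECs were Cdr2, Zfp119a, Vtn, Ceacam1 and Frmd4a, and the 5 with a higher change were Rai2, Ptpn18, Chmp4b, Gm24407 and Bmyc. Each is a description with an adjusted p of at least 0.536. Vtn, the adhesive plasma protein vitronectin, had a BEC change of 0.08 (-0.46 to 0.62) log2 units as value and 95% interval, and was at 0 to 4.10 TPM against 10.9 to 56 TPM in heart LECs. Ceacam1, an adhesion molecule of endothelial and epithelial cells, had 0.28 (-0.10 to 0.65) in BECs, where it was at 279, 235 and 325 TPM and 182, 299, 248, 299 and 225 TPM. Rai2 had -0.14 (-0.68 to 0.39) in BECs, and was at 34.0 to 53.3 TPM against 6.95 to 30.3 TPM in heart LECs. Ptpn18, a tyrosine phosphatase, was at 7.79, 14.0 and 8.17 TPM in angII+VEGFC BECs and 18.9, 15.2, 19.96, 16.5 and 14.5 TPM in angII BECs, without overlap. Bmyc, a member of the MYC family, was at 38.8, 40.2 and 50.7 TPM and 52.2, 64.3, 58.6, 54.5 and 50.0 TPM, with overlap by a small margin. Gm24407 is annotated as a small nuclear RNA and ran from 5.91 to 37.0 TPM within angII BECs alone.

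**Figure D5:**
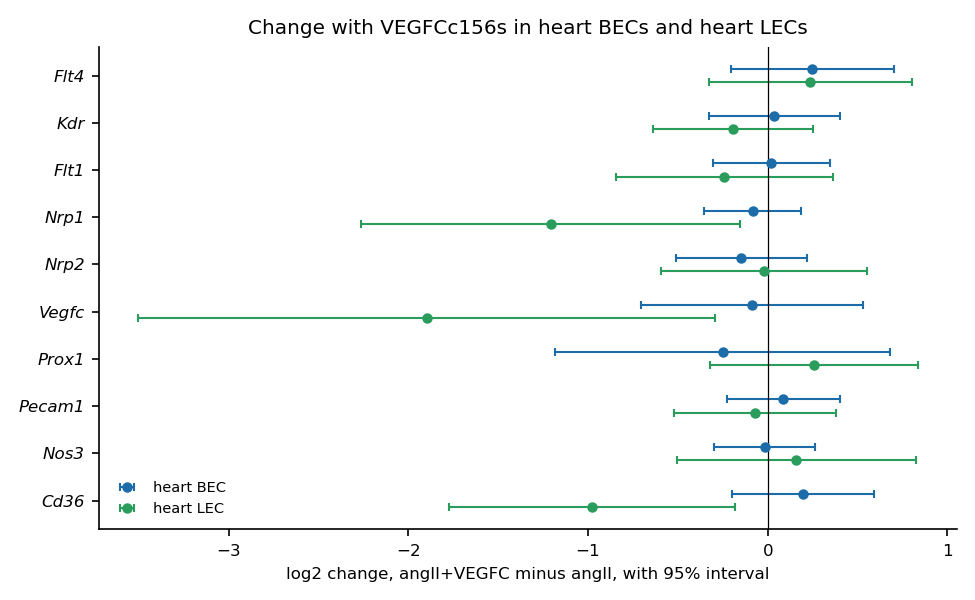
Log2 change, angII+VEGFC minus angII (horizontal axis), of 10 genes in heart BECs and heart LECs, each fitted within its own cell type, with the point as the estimate and the bar as its 95% interval. All 10 heart BEC intervals cross 0, and those of Nrp1, Vegfc and Cd36 in heart LECs do not, before adjustment over all genes.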

How the data were processed

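RNA was measured in 48 libraries of sorted mouse cells, made from 2 ng of RNA with an ultra-low-input Smart-Seq kit and Nextera XT, and the 8 heart BEC libraries of angII+VEGFC and angII mice were compared. The authors aligned reads to GRCm38 with STAR 2.5.3a and quantified Ensembl 95 genes with Salmon 0.12.0. They deposited TPM values per gene as 1 table of 54752 genes, of which 54723 have a symbol, and each library's values sum to 997657 to 999929. TPM keeps no read depth, so counting intervals and detection limits cannot be computed. The authors tested counts with DESeq2. Here limma 3.58.1 in R 4.3.3 was fitted to log2(TPM + 1), with a variance trend, over all 12 heart BEC libraries, keeping genes that reached 1 TPM in 3 libraries or more, with age and sequencing batch as covariates and Benjamini-Hochberg adjustment over all genes tested. The difference between cell types was the interaction of population and treatment over 36 endothelial libraries. Library measures were compared by two-sided exact permutation tests adjusted over 15 measures. The scripts were tested on simulated data with seeded changes larger than 1 log2 unit, so whether changes of 1 log2 unit would be found was not tested. Figures were drawn with matplotlib 3.10.9.

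Groups came from the sample labels. Ages are in months as labelled, while the study's methods give ages in weeks, so the unit is uncertain. The named genes were the 10 higher and 10 lower genes of smallest p with a mean of at least 5 TPM and no overlap between the groups, the listed genes at an unadjusted p under 0.05 and up to 4 of highest mean in each list, 10 receptors, ligands and markers, and the 5 genes of each sign with the smallest interaction p and a mean of at least 5 TPM in both cell types. Others are marked as chosen after their values were seen. The values of 1 of the 10 lower genes are not reported in the text. The genes, lists and tests were all chosen with earlier results of these data known. LECs and BECs with the same number came from the same mouse, as the labels' animal numbers show. Deviations from the group mean correlated between heart LECs and heart BECs of a mouse with r of -0.02 to 0.25 over 12 pairs, median 0.06, and 4 pairs exceeded 0.1. Alternatives changed the pseudocount, the filter, the covariates, the scaling, the libraries and the mouse block. No 2 heart BEC libraries were duplicates, with Pearson r of 0.946 to 0.979 across genes.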

Additional observations from a re-analysis of the deposited data

Results flagged for a closer look

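In 114 groups of library values for the named genes and marker sums, 7 (6.14%) held a value far from the others by Dixon's criterion, where about 5% would by chance. Fibroblast markers summed to 7351 TPM in angII mouse 3 and to 13206 TPM in ctrl mouse 1, far above the rest of their groups. Haemoglobin and platelet markers summed to 31357 TPM in angII mouse 14, the highest of its group. Cardiomyocyte markers summed to 178 TPM in angII mouse 12, the lowest of its group. Arterial markers summed to 2134 TPM in ctrl mouse 11, also apart from its group. Prox1 was at 4.53 TPM and Dnajb1 at 318 TPM in angII mouse 3, each the highest of the 5 angII libraries. Groups of 3, such as angII+VEGFC, were not examined in this way, and the fibroblast sums of that group were 8087, 1368 and 1164 TPM.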

How the results depend on the processing

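The count of 0 genes at an adjusted p under 0.05 in heart BECs held in all 18 alternatives. One of them left out the 3 libraries high in fibroblast markers together. In it the ages of the angII+VEGFC and angII mice did not overlap, so that fit adds little to the count of 0. The unadjusted count was 1469 of 45086 genes (3.26%) without a filter and 206 of 11125 (1.85%) with a filter at 5 TPM. It was 355 of 18684 (1.90%) with only the angII and angII+VEGFC groups fitted. With 1 library left out it ran from 442 (2.13%) to 1117 (5.35%), against 2.59% in the main fit. The share of genes with an interval within 1 log2 unit was 23.6% without the fibroblast-high libraries, an alternative chosen after seeing the data, and 39.3% to 59.3% with 1 library left out. The causes were not tested. Without angII+VEGFC mouse 2, 37.8% of the genes at an unadjusted p under 0.05 were higher, against 56.8% with all libraries, 67.1% without a filter and 69.0% with batch as the only covariate.

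The interaction of heart LECs and heart BECs gave 3 genes at an adjusted p under 0.05 without a filter and 0 to 3 with 1 mouse left out (3 without mouse 8, 1 each without mice 3, 12 and 14). For diaphragm LECs it gave 4 without a filter, 2 after quantile normalization and 0 to 1 with 1 mouse left out (1 without mouse 8). These 16 calls were 12 different genes with means of 0.0339 to 2.25 TPM. With the mouse as a replicate block, 0 genes passed the adjusted threshold in either interaction. The unadjusted counts were then 3112 (9.50%) for heart LECs and 2184 (6.67%) for diaphragm LECs. Without the block they were 2106 (6.43%) and 2294 (7.00%). Of 755 values for 42 named genes under the alternatives, 712 lay within 1 SD of the angII libraries from the reported value, 43 lay further, 32 (in 11 genes) changed sign and 0 passed the adjusted threshold. Since TPM keeps no depth, the precision of low genes cannot be read from counts.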

Other observations

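Among the 20 genes described above, Pard6a and Enkd1 are neighbours on opposite strands of chromosome 8, 154 bases apart, and their values went opposite ways. This was noticed after the values were seen, and no test of it was made. Pard6a was at 15.0, 11.2 and 16.7 TPM in angII+VEGFC and 6.43, 9.07, 11.0, 9.80 and 9.25 TPM in angII, a log2 change of 0.70. Enkd1 was at 2.96, 2.52 and 4.22 TPM in angII+VEGFC and 8.63, 5.32, 6.04, 7.75 and 6.81 TPM in angII, a log2 change of -0.87. In ctrl libraries Pard6a was at 8.41, 12.0, 14.8 and 14.3 TPM and Enkd1 at 4.28, 3.80, 8.10 and 5.14 TPM. The adjusted p of both was 1.00 by limma.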
